A study of Homo sapiens with 8 samples.

Results

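The DEAD and DEAH box RNA helicases are a family of ATP-driven enzymes that open or remodel RNA structures and strip proteins from RNA. The 49 genes described here are the protein-coding genes with a symbol of the form DDX or DHX plus a number, without DDX3Y, that held at least 100 counts summed over the 4 input libraries. They comprise 34 DDX and 15 DHX genes of 60664 gene identifiers in the count tables. Of 53 protein-coding genes with such a symbol, DDX4, DDX25, DDX53 and DHX58 were left out, with 2, 10, 0 and 74 summed input counts. The members with the lowest sums were DDX19B with 245, DDX47 with 527 and DDX59 with 753 counts. All 49 members passed the filter on low counts in both comparisons.

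A DEAD or DEAH box helicase has a core of paired RecA-like domains that close around ATP and RNA. The family takes its name from a short stretch of that core, motif II, which binds the magnesium ion of ATP and reads Asp-Glu-Ala-Asp in most DDX and Asp-Glu-Ala-His in most DHX proteins. DEAD box members pry short duplexes apart locally and act in ribosome assembly, splicing, mRNA export, translation and decay, whereas DEAH box members translocate along a strand and drive, among other steps, the remodelling of the spliceosome. TRiC is the ring-shaped cytosolic chaperonin that folds actin, tubulin and WD40 proteins, and prefoldin (PFD) is a jellyfish-shaped co-chaperone that binds unfolded chains and hands them to TRiC.

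Motif II is shown as DNA for the members that the comparisons turn on, because it marks the same place in each helicase core and shows how far paralogues can be separated by a short read. Each line gives 30 bases of coding sequence from GENCODE release 44 on hg38, 5′ to 3′ on the gene's own strand, with the 12 bases that code for the box in capitals.
DDX39B: tttattttgGATGAATGTGATaagatgctt
DDX39A: tttgtgctgGACGAGTGTGACaagatgctg
DHX35: atcatgctgGATGAAGCCCACgagaggacc
DDX11: gtgatcatcGACGAGGCGCACaacctgatc
DDX49: ctggtgatgGATGAGGCAGACcggctgctg
DDX56: ttggtggtgGACGAAGCTGACcttcttttt
DDX5: cttgtccttGATGAAGCAGATagaatgctt
DHX9: gtaattgtaGATGAAATACATgaaagagat
DDX19A: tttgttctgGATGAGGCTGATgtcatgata
DDX19B: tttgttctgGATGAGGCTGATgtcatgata
These windows lie within exons at chr6:31536510-31536539 (minus strand) for DDX39B, chr19:14410999-14411028 (minus) for DDX39A and chr20:38992360-38992389 (plus) for DHX35. The DDX11 window is at chr12:31091797-31091826 (plus), that of DDX56 at chr7:44572612-44572641 (minus), and that of DDX49 spans an intron between chr19:18921962 and chr19:18922352 (plus). Those of DDX5 and DHX9 are at chr17:64503236-64503265 (minus) and chr1:182867008-182867037 (plus), and those of DDX19A and DDX19B at chr16:70366192-70366221 and chr16:70329399-70329428 (both plus). DDX39A and DDX39B differ at 7 of the 30 bases, whereas DDX19A and DDX19B differ at 0, so that a read lying wholly inside this window cannot be assigned to either DDX19 gene.

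Selective ribosome profiling reads out the stretches of mRNA shielded by ribosomes during nuclease digestion (RPFs), here for all ribosomes (input) and for those recovered through a tagged chaperone (pulldown). All cells were U2OS osteosarcoma cells with genotype CCT4-Halo, in which the HaloTag sits in a loop of the TRiC subunit CCT4, or PFDN4-Halo, in which it follows the C terminus of a prefoldin subunit. Both tags were placed at the endogenous gene, each line was grown from a single sorted clone, and every sample received cycloheximide at 100 µg/mL for 1 min and the crosslinker DSP at 2 mM for 30 min. Input and pulldown of each line, with 2 replicates each, make 4 groups and 8 libraries, and no library from cells without a HaloTag was used here. The study's reporting summary calls the replicates biological, without saying how they were separated.

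The libraries held between 9523128 and 32637658 counts, of which the 49 helicases took between 0.608% and 0.872%. PFD pulldown replicate 1 was the smallest library, and the pair of PFD pulldowns was the least alike, with a Spearman correlation across genes of 0.906 against 0.968 to 0.988 for the other pairs. The common dispersion, edgeR's squared coefficient of variation between replicates, was 0.0153 for TRiC and 0.331 for PFD libraries. The 6 mesenchymal markers examined (VIM, FN1, CD44, LGALS1, SPARC and RUNX2) were present in all 8 libraries, whereas CD3E was at 0 in all 8 and PTPRC and ALB stayed below 0.2 CPM (counts per 1000000 after scaling). EPCAM ranged from 0.108 to 18.2 CPM, GFAP from 0 to 1.23 CPM and CDH5 from 0 to 8.25 CPM. The 2 clones differed from each other, with FN1 at 1706 to 1950 CPM in the TRiC and 11980 to 14690 CPM in the PFD libraries.

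The inputs give each helicase's level in total ribosomes. Levels are given in CPM per kilobase of coding sequence with all inputs scaled together, as mean ± SD of 2 replicates, and these levels chose no member beyond the minimum sum. DDX5, a co-regulator of transcription and splicing, stood highest in both lines, with 570.9 and 598.1 in the TRiC inputs and 891.9 and 844.4 in the PFD inputs. In the TRiC line it was followed by its paralogue DDX17 at 256.1 ± 13.9, which lay clear of the next gene. DDX1, a subunit of the tRNA ligase complex, at 166.1 ± 17.2, DDX3X, which helps ribosomes load on structured mRNAs, at 161.7 ± 8.45, and DHX9, a nuclear helicase that binds long duplexes, at 157.8 ± 8.13 could not be ordered against each other, since their replicates overlapped. The lowest was DDX19B at 1.74 ± 0.815, and the median of the 49 genes was 27.2. Of DDX19B's coding stretches of 28 bases, 55.5% also occur in genes at other loci, and another gene on its strand covers 42.2% of its coding bases. Its level may thus be understated, as may those of DDX39B and DDX47, whose coding bases lie to 100% under such a gene.

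Across the 49 genes the order of levels was much the same in both lines (Spearman's rho 0.901 across genes, which share libraries and are not independent replicates). The levels themselves were higher in the PFD line for most members. Both TRiC inputs lay below both PFD inputs for 32 of 49 helicases (65.3%, against 35.8% of 12697 protein-coding genes with the same minimum sum), and above them for 9 (18.4%, against 41% of those genes). The median log2 ratio of TRiC over PFD inputs was -0.43 for the helicases and 0.06 for the protein-coding genes. Among roles with more than 1 member the shift was widest in ribosome biogenesis, where 12 of 16 were lower in the TRiC inputs, with a median log2 ratio of -0.79. DDX21, a nucleolar helicase of ribosomal RNA synthesis, stood at 92.9 and 95.0 CPM per kilobase in the TRiC inputs and at 302.3 and 269.4 in the PFD inputs, whereas its paralogue DDX50 ran the other way, at 24.7 and 25.3 against 17.0 and 18.1. DDX21 thus exceeded DDX50 per length 3.76-fold in the TRiC and 16.3-fold in the PFD inputs, and DDX5 exceeded DDX17 by 2.28-fold and 5.18-fold. Of DDX50's coding stretches of 28 bases, 32.9% also occur in genes at other loci, against 0% of those of DDX21. Reads had to align at a single place, so the level of DDX50 may be understated. The other members higher in the TRiC inputs were DDX24, DDX27, DDX17, DHX16, DHX35, DHX8, DHX29 and DHX40. No test was made between the lines, since clone, tag and library preparation cannot be told apart.

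**Figure D1:**
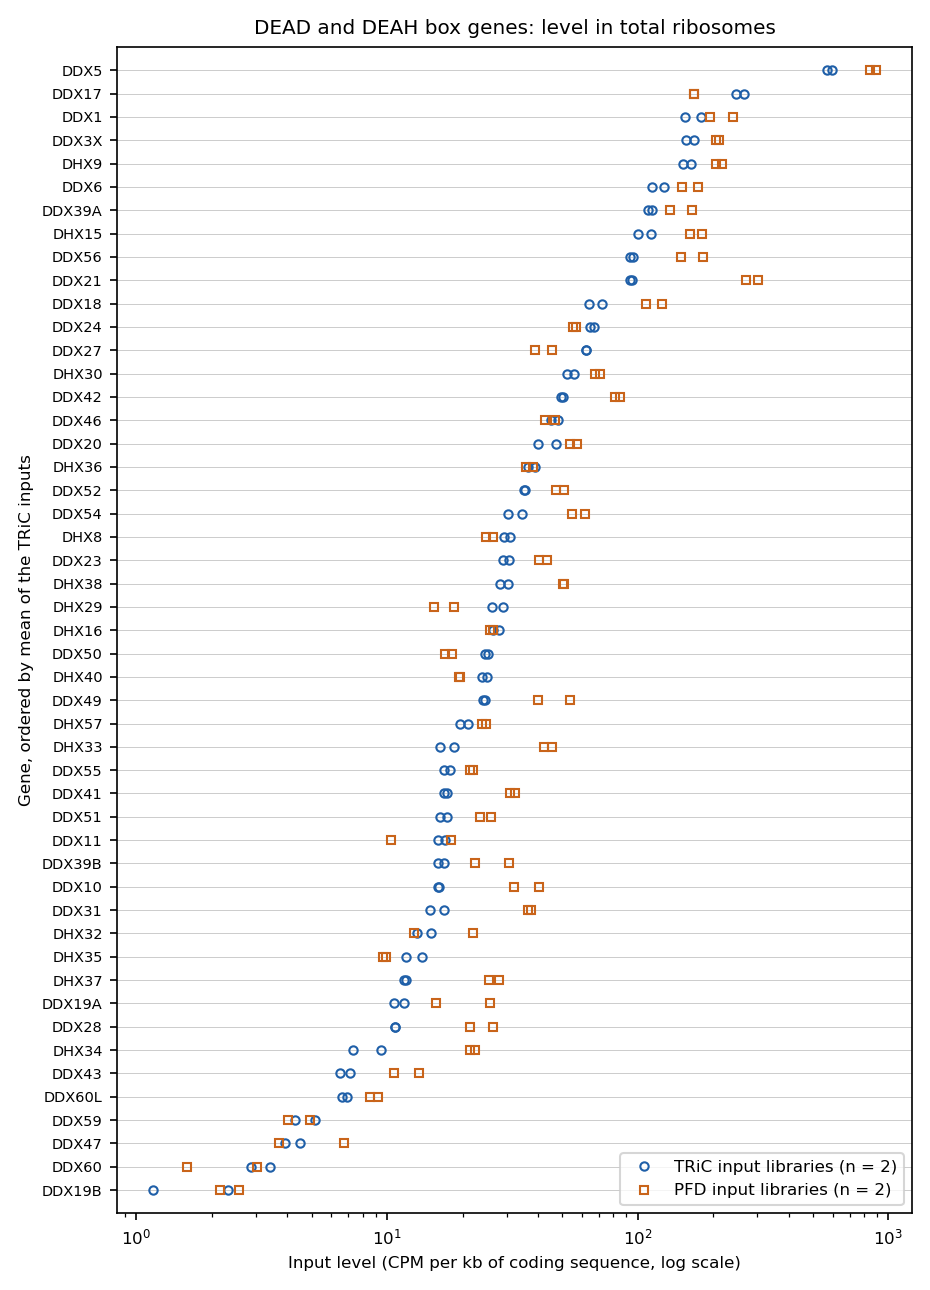
Level of each helicase in total ribosomes, in CPM per kilobase of coding sequence on a log axis, for the 2 TRiC input libraries (circles) and the 2 PFD input libraries (squares), with genes ordered by their TRiC mean. DDX5 lies highest and DDX19B lowest in the TRiC inputs, and for 32 genes both squares lie to the right of both circles.

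Of the 49 helicases, 5 differed between the TRiC pulldown and its input. DDX39B, DHX35 and DDX11 took a larger share of counts in the pulldown, and DDX49 and DDX56 a smaller one. These are 6.12% of members higher and 4.08% lower at an adjusted p under 0.05, against 8.64% and 10.6% of all 17934 genes tested. Fold changes are edgeR's log2 ratios of pulldown over input after TMM scaling, and their adjusted p-values are Benjamini-Hochberg values over all genes tested. With all 8 libraries in one fit, or against a minimum change of 1.5-fold (glmTreat), 0 of the 5 passed. The losses given below for single genes come on top of these.

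DDX39B (ENSG00000198563, chr6:31530219-31542448, minus strand), also known as UAP56, acts in early spliceosome assembly and recruits the TREX complex that prepares mRNA for export. It was measured at 20.7 and 21.9 CPM in the TRiC inputs and at 37.4 and 44.7 CPM in the TRiC pulldowns. The groups lay far apart, with the lower pulldown well above the higher input. The log2 fold change was 0.94 (SE 0.12, 1.92-fold, edgeR adjusted p = 6.8e-05). It was 0.82 to 1.06 over 12 other settings, and passed the threshold in 10 of them. It did not pass with all 8 libraries in one fit (adjusted p = 0.244) or against a minimum change of 1.5-fold (glmTreat, adjusted p = 0.0661).

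The counts of DDX39B need care. In GENCODE release 44 the read-through gene ATP6V1G2-DDX39B on the same strand covers 100% of its coding bases, and STAR's gene counting drops reads that lie on more than 1 gene. The read-through gene was at 0 counts in all 8 libraries. Under that annotation the reads counted for DDX39B would come from the 4850 of its 7007 exon bases that no other gene on its strand covers, of which 0 are coding. The read-through gene is among the counted identifiers, so the annotation the authors used held it. Its release is not given in the sources used here, so the exact bases are not known. The counts of DDX39B may thus lie largely outside its coding sequence, and its fold change may not describe its translation.

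Its paralogue DDX39A, with which it shares the role in mRNA export, was counted free of such overlap. It was at 142.8 and 147.7 CPM in the TRiC inputs and 135.5 and 121.0 CPM in the TRiC pulldowns. Both pulldowns lay below both inputs, but the log2 fold change of -0.18 (SE 0.08) did not pass the threshold (edgeR adjusted p = 0.145), which it did without TRiC pulldown replicate 1 (-0.27, adjusted p = 0.0143). Values without 1 TRiC library leave that group with a lone library, assumed to vary like the other group. Per length, DDX39A exceeded DDX39B 6.82-fold in the TRiC and 5.64-fold in the PFD inputs, on counts that for DDX39B may leave out coding bases.

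DHX35 (ENSG00000101452, chr20:38962299-39039723, plus strand) is a DEAH box protein found in the catalytic spliceosome. It was at 29.4 and 25.4 CPM in the inputs and at 35.8 and 34.3 CPM in the pulldowns. The groups did not overlap, and the log2 fold change was 0.36 (SE 0.12, edgeR adjusted p = 0.041). The call was lost without TRiC input replicate 1 (0.47, adjusted p = 0.0755), input replicate 2 (0.24, adjusted p = 0.450) or pulldown replicate 1 (0.32, adjusted p = 0.0664), and with DESeq2 (adjusted p = 0.0557).

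DDX11 (ENSG00000013573, chr12:31073860-31104799, plus strand) is an iron-sulfur DNA helicase of sister chromatid cohesion that carries a family symbol although it acts on DNA. It was at 43.9 and 46.9 CPM in the inputs and at 59.3 and 55.0 CPM in the pulldowns, without overlap. The log2 fold change was 0.33 (SE 0.10, edgeR adjusted p = 0.0248). The call was lost without TRiC input replicate 1 (0.29, adjusted p = 0.252), input replicate 2 (0.37, adjusted p = 0.115) or pulldown replicate 1 (0.27, adjusted p = 0.0741). Of its coding words of 28 bases, 74.6% also occur in genes at other loci and 66.1% in the pseudogene DDX12B, so that unique alignment leaves few of its positions countable. DDX12B rose in the same comparison from 8.33 and 8.12 CPM to 18.3 and 14.5 CPM (log2 fold change 0.99, SE 0.17, edgeR adjusted p = 0.000886), and the related DDX12P from 7.94 and 7.43 CPM to 14.1 and 13.3 CPM (0.84, SE 0.18, edgeR adjusted p = 0.0032). Values of the 3 loci are therefore uncertain as to which gene each read came from.

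DDX49 (ENSG00000105671, chr19:18919705-18929189, plus strand), a nucleolar helicase of ribosome biogenesis, had the lowest fold change of the family. It was at 36.0 and 35.4 CPM in the inputs and at 26.2 and 26.2 CPM in the pulldowns. The pulldown replicates were nearly equal, and the log2 fold change was -0.45 (SE 0.11, 0.733 of the input, edgeR adjusted p = 0.0095). The call was lost without TRiC input replicate 1 (-0.43, adjusted p = 0.104) or replicate 2 (-0.47, adjusted p = 0.0658).

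DDX56 (ENSG00000136271, chr7:44565804-44575051, minus strand), another nucleolar helicase, of the large ribosomal subunit, was several times as abundant. It was at 154.8 and 158.5 CPM in the inputs and at 131.3 and 130.6 CPM in the pulldowns, again with replicates close together. The log2 fold change was -0.26 (SE 0.08, edgeR adjusted p = 0.026). The call was lost without TRiC input replicate 1 (-0.27, adjusted p = 0.173) or replicate 2 (-0.25, adjusted p = 0.218), with cyclic loess (-0.16, adjusted p = 0.143) and with library totals (-0.21, adjusted p = 0.119). Reads of these genes are easier to place than those of DDX11, since DDX49 and DHX35 share 0% and DDX56 4.09% of their 28-base words with other loci, and no other gene on the same strand covers coding bases of the 3.

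**Figure D2:**
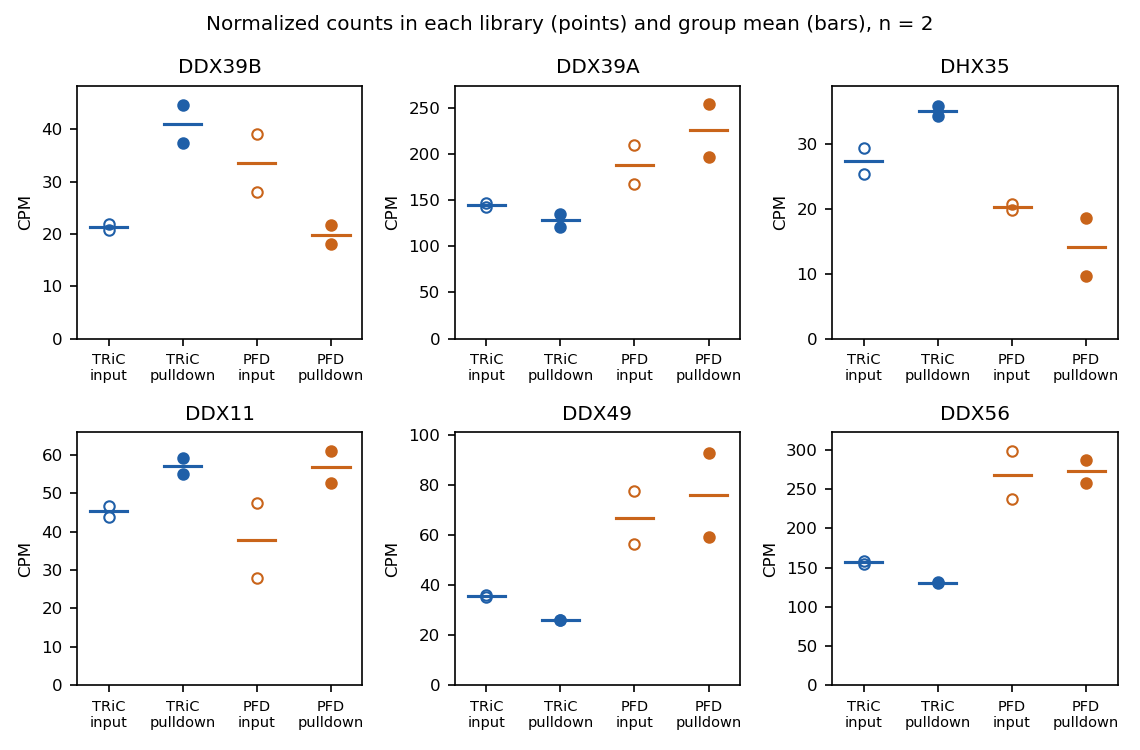
CPM after TMM scaling within each line, from 0 upwards, for the 5 helicases called in the TRiC pulldown and for DDX39A, with 1 point per library and a bar at the mean of n = 2. In the TRiC libraries (blue) pulldown and input points are apart in all 6 panels, whereas in the PFD libraries (orange) the spread between replicates is wide for DDX49 and DHX35.

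By edgeR as reported, the other 44 helicases did not pass the threshold in the TRiC pulldown, and DESeq2 called 1 of them, DDX17 (0.19, adjusted p = 0.0463). Log2 fold changes of the 49 members centred on -0.02 with quartiles of -0.11 and 0.09, against a median of -0.00 for all genes tested and -0.05 for the protein-coding genes with the same minimum sum. There were 23 above and 26 below 0. Both pulldowns lay above both inputs for 11 members (22.4%, against 29.3% of all genes) and below them for 16 (32.7%, against 31.2%). At an unadjusted p under 0.05, 5 were higher and 7 lower (24.5% of members, against 32.5% of all genes).

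**Figure D3:**
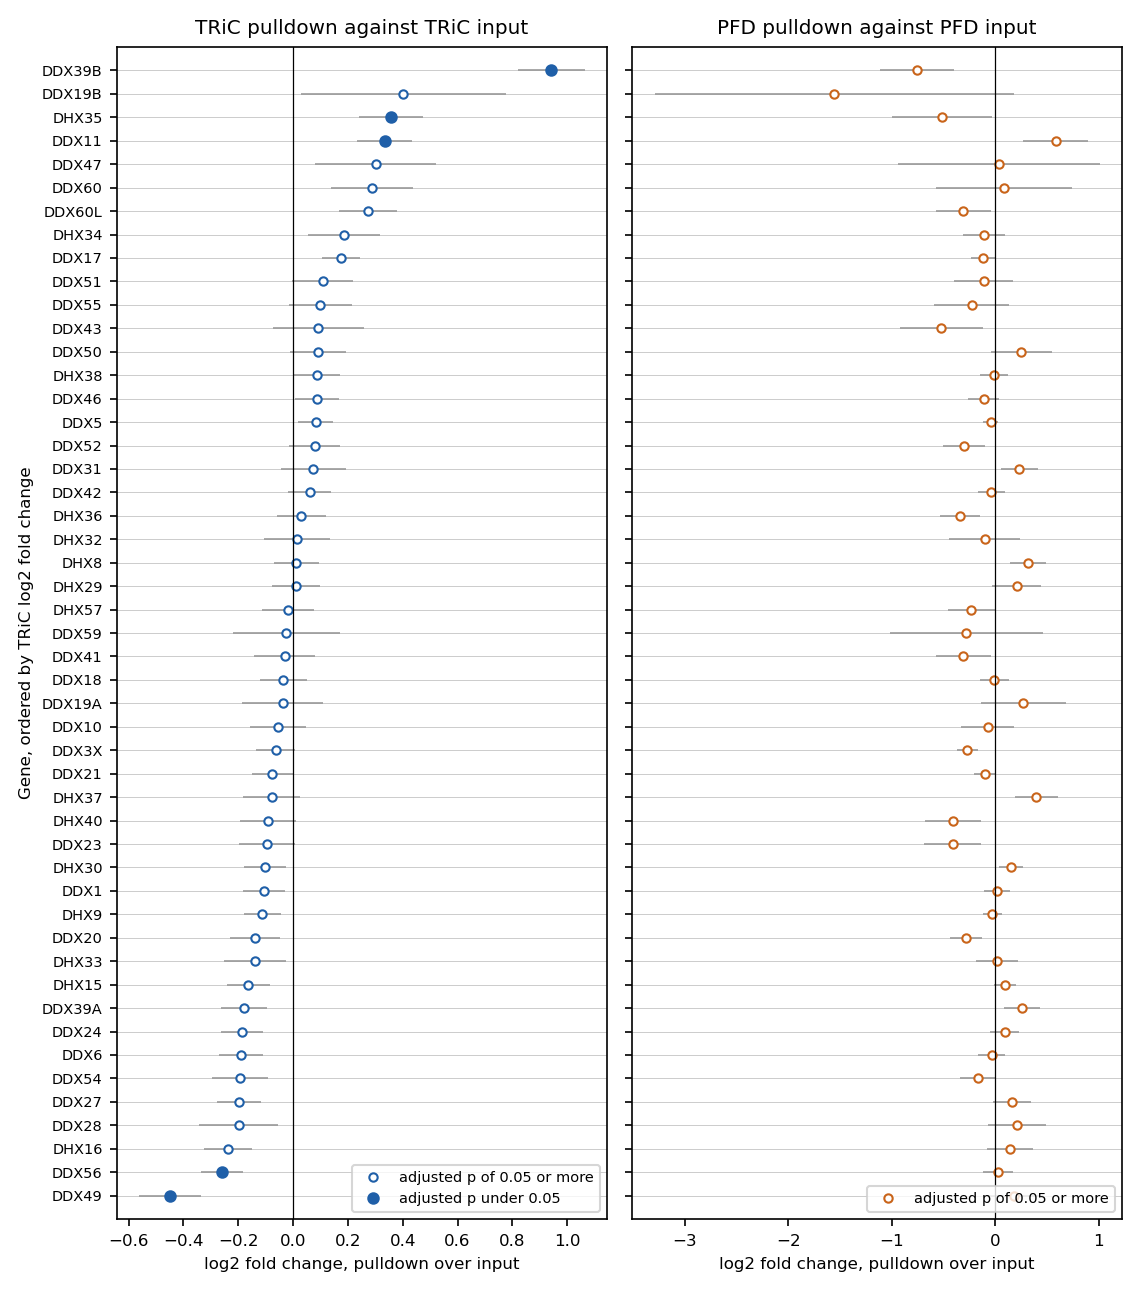
Log2 fold change of pulldown over input for the 49 helicases, with bars of 1 SE, in the TRiC (left) and PFD (right) comparison, with genes ordered by the TRiC value and a wider axis on the right. Filled points passed an adjusted p of 0.05, which 5 genes did on the left, from DDX39B at 0.94 to DDX49 at -0.45, and 0 genes on the right.

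Grouped by role, the 16 members of ribosome biogenesis had a median log2 fold change of -0.07 in the TRiC pulldown, with 0 called higher and 2 called lower. Their range ran from DDX49 to DDX47 (0.30, SE 0.22, adjusted p = 0.374), a helicase of the small-subunit processome. DDX47 was measured at only 5.37 and 6.21 CPM in the inputs and 6.87 and 7.43 CPM in the pulldowns, and APOLD1 on the same strand covers 100% of its coding bases, so its counts carry the same doubt as those of DDX39B. Its relative DDX27, at 143.6 and 143.7 CPM in the inputs and 131.4 and 119.1 CPM in the pulldowns, had a value of -0.20 (SE 0.08, edgeR adjusted p = 0.102), and of -0.28 (adjusted p = 0.0121) without TRiC pulldown replicate 1. DDX21 and DDX50 had values of -0.08 (SE 0.07) and 0.09 (SE 0.10), neither past the threshold.

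The 16 members of splicing and mRNA export had a median of 0.04, with DDX39B and DHX35 called higher and 0 called lower. DDX5 was at 1062 and 1113 CPM in the inputs and 1122 and 1182 CPM in the pulldowns (0.08, SE 0.06), and DDX17 at 544.1 and 587.3 CPM against 616.1 and 660.5 CPM (0.17, SE 0.07, edgeR adjusted p = 0.0851). In both paralogues each pulldown lay above each input. Under cyclic loess both passed the threshold, DDX5 at 0.25 (adjusted p = 0.00852) and DDX17 at 0.32 (adjusted p = 0.00247), and DDX17 also passed with DESeq2 (adjusted p = 0.0463), with at least 10 counts in every library (0.20, adjusted p = 0.0436) and without TRiC pulldown replicate 1 (0.21, adjusted p = 0.00927). The 4 DEAH box remodelling factors of the spliceosome, DHX8, DHX15, DHX16 and DHX38, lay between -0.24 and 0.09, and DHX16 came nearest to the threshold (-0.24, SE 0.09, edgeR adjusted p = 0.0684), which it passed without TRiC pulldown replicate 1 (-0.27, adjusted p = 0.0391). DDX19A and DDX19B, which release mRNA at the nuclear pore, were at -0.04 (SE 0.15) and 0.40 (SE 0.37). Reads of the pair can be told apart over few positions, since 55.1% and 55.5% of their 28-base words are shared with other loci and the read-through gene of both covers 89.1% and 42.2% of their coding bases, and DDX19B held 47 to 129 counts in the TRiC libraries.

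None of the 7 members of translation, mRNA storage and decay was called in the TRiC pulldown by edgeR, where 1 of them, DDX6, had an unadjusted p under 0.05 and where DESeq2 called 0 as well. Their median was -0.06. DHX9, at 585.4 and 629.5 CPM in the inputs and 552.3 and 571.5 CPM in the pulldowns, had a value of -0.11 (SE 0.07), and DDX1 one of -0.11 (SE 0.08). DDX3X, at 312.5 and 336.4 CPM in the inputs and 309.5 and 311.9 CPM in the pulldowns, was at -0.06 (SE 0.07). DDX6, the helicase of P-bodies and mRNA decay, was at -0.19 (SE 0.08, edgeR adjusted p = 0.111). The mitochondrial helicases DDX28 and DHX30, which assemble the mitoribosome, were at -0.20 (SE 0.14) and -0.10 (SE 0.08). The interferon-induced pair DDX60 and DDX60L gave the highest median of any role with more than 1 member, 0.28, at 14.9 and 17.7 against 18.2 and 21.6 CPM for DDX60 and 34.1 and 35.8 against 41.8 and 42.7 CPM for DDX60L. Neither passed the threshold (edgeR adjusted p = 0.197 and 0.0767), and DDX60L did so among other settings with at least 10 counts in every library and with cyclic loess.

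Across protein-coding genes at large, the TRiC log2 fold change rose with coding length (Pearson's r 0.374, rho 0.438, n = 12667). With all 49 helicases included no such rise was seen (r -0.01, rho 0.03), although their coding sequences ran from 1.281 kb in DDX39A to 5.136 kb in DDX60. Among the 49 are the short genes DDX39B (1.284 kb, 0.94), DDX19B (1.437 kb, 0.40), DDX47 (1.365 kb, 0.30) and DDX19A (1.434 kb, -0.04), whose counts may leave out coding bases. No coefficient was computed without them, so the values do not show that the helicases differ from other genes. The TRiC log2 fold change was lower at higher input levels in both sets, among the helicases with the same genes included (r -0.398, rho -0.447) and among protein-coding genes (r -0.244, rho -0.226). These are descriptions across genes that share libraries and depth, and the input level enters both axes.

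In the PFD pulldown no helicase differed from input at an adjusted p under 0.05 by edgeR, against 0.241% of the 14111 genes tested. At an unadjusted p under 0.05 there was 1 member, against 6.93% of all genes. This gene, DDX3X, was the 1 member that DESeq2 called, and cyclic loess with limma called 0. DDX3X was at 407.7 and 406.8 CPM in the PFD inputs and at 331.4 and 344.5 CPM in the PFD pulldowns. Both pairs were tight and apart, and the log2 fold change was -0.27 (SE 0.10, edgeR adjusted p = 0.710, and DESeq2 -0.26 with adjusted p = 0.033). The median over the 49 members was -0.04, with 20 above and 29 below 0, and both pulldowns lay above both inputs for 6 members (12.2%, against 18.3% of all genes) and below them for 13 (26.5%, against 20.4%).

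Errors at the median member were larger in the PFD than in the TRiC comparison. Whether this accounts for the absence of edgeR calls was not tested. The median SE over members was 0.206 in the PFD and 0.0991 in the TRiC comparison, and it ranged in the PFD comparison from 0.075 for DDX5 to 1.74 for DDX19B. DDX19B, the lowest at -1.56, was at 3.01 and 3.66 CPM in the inputs and at 0.108 and 2.10 CPM in the pulldowns, and its value in PFD pulldown replicate 1 rests on 1 count. DDX11 was the highest at 0.58 (SE 0.32, edgeR adjusted p = 0.807), with 47.5 and 28.1 CPM in the inputs and 61.1 and 52.7 CPM in the pulldowns. DDX39B ran from 28 and 39.1 CPM in the inputs to 18.0 and 21.7 CPM in the pulldowns (-0.75, SE 0.36, edgeR adjusted p = 0.747). DHX35 was at 19.9 and 20.8 CPM in the inputs and 9.70 and 18.6 CPM in the pulldowns (-0.52, SE 0.48). DDX49 at 0.18 (SE 0.28) and DDX56 at 0.03 (SE 0.15) had overlapping groups.

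By role, the medians in the PFD pulldown were 0.02 for ribosome biogenesis, -0.08 for splicing and mRNA export and -0.04 for translation, mRNA storage and decay. Of the abundant members besides DDX3X, DDX5 was at -0.04 (SE 0.08), DHX9 at -0.03 (SE 0.09), DDX21 at -0.10 (SE 0.10), DDX1 at 0.02 (SE 0.13) and DDX17 at -0.11 (SE 0.12). The less abundant paralogues varied more between replicates. DDX50 was at 36.6 and 40 CPM in the inputs and 54.6 and 36.8 CPM in the pulldowns (0.25, SE 0.30), and DDX19A at 36.1 and 22.4 against 46.5 and 24.7 CPM (0.27, SE 0.41). DDX47 was at 4.93 and 9.16 against 12.1 and 2.42 CPM (0.03, SE 0.98), and DDX60 at 15.1 and 8.19 against 17.6 and 7.37 CPM (0.09, SE 0.66), so that in both of these the pulldown replicates differed more than pulldown and input did. DDX60L stood apart from DDX60 with tighter pairs, 45.8 and 43.8 against 34.0 and 38.3 CPM (-0.31, SE 0.27). DDX39A, at 167.4 and 210.3 CPM in the inputs and 254.5 and 197.4 CPM in the pulldowns, had a value of 0.26 (SE 0.18). Without PFD pulldown replicate 2 it was called higher (0.43, adjusted p = 0.0345), as was DHX37, which releases the U3 snoRNA from pre-ribosomes (0.62, adjusted p = 0.0182), whereas DDX23, the U5 snRNP helicase, was called lower (-0.88, adjusted p = 0.00412). Those 3 calls rest on PFD pulldown replicate 1 as the lone pulldown, assumed to vary like the inputs.

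An interaction term over all 8 libraries asked whether a gene's fold change differed between the TRiC and the PFD line, and 0 helicases passed an adjusted p of 0.05 by edgeR, against 0.0371% of 18855 genes. At an unadjusted p under 0.05 there were 2 members (4.08%, against 14.8% of all genes), DDX39B and DDX60L. For DDX39B the log2 fold change was higher by 1.70 with TRiC than with PFD (SE 0.34, edgeR adjusted p = 0.143). DESeq2 called this 1 gene (1.70, adjusted p = 0.00096), as did edgeR without a filter on low counts (1.67, adjusted p = 0.00818), whereas cyclic loess with limma called 0 members. DDX60L differed by 0.59 (SE 0.23, edgeR adjusted p = 0.317). Without PFD pulldown replicate 1 the difference was 1.54 for DDX39B and -0.62 for DHX16. Without PFD pulldown replicate 2 it was 1.90 for DDX39B. In that setting the median difference over all genes shifted to 0.32. The test is made against a difference of 0, so values there are not corrected for that shift.

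The comparisons share no library, and the members' values can be set side by side. Over the 49 genes the TRiC and PFD log2 fold changes were negatively correlated (r -0.439, rho -0.347), whereas over 12180 protein-coding genes they were unrelated (r 0.0175, rho 0.0131). Without DDX39B, DDX47, DDX19A and DDX19B, whose coding bases lie to over 40% under another gene on the same strand, the coefficient over the 45 others was -0.189 (rho -0.297). Pulldown and input did not overlap in either line for 11 members (22.4%, against 24.9% of 13749 genes tested in both). Of these, DDX39B, DDX46, DDX52, DDX60L and DHX35 were above input with TRiC and below it with PFD (10.2% of members, 5.29% of genes), and DDX24, DHX30 and DHX37 the reverse (6.12%, 7% of genes). DDX20 and DDX3X were below input in both (4.08%, 7.51% of genes), and DDX11 was above it in both (2.04%, 5.13% of genes). This is a description across genes that share their libraries, with no test.

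**Figure D4:**
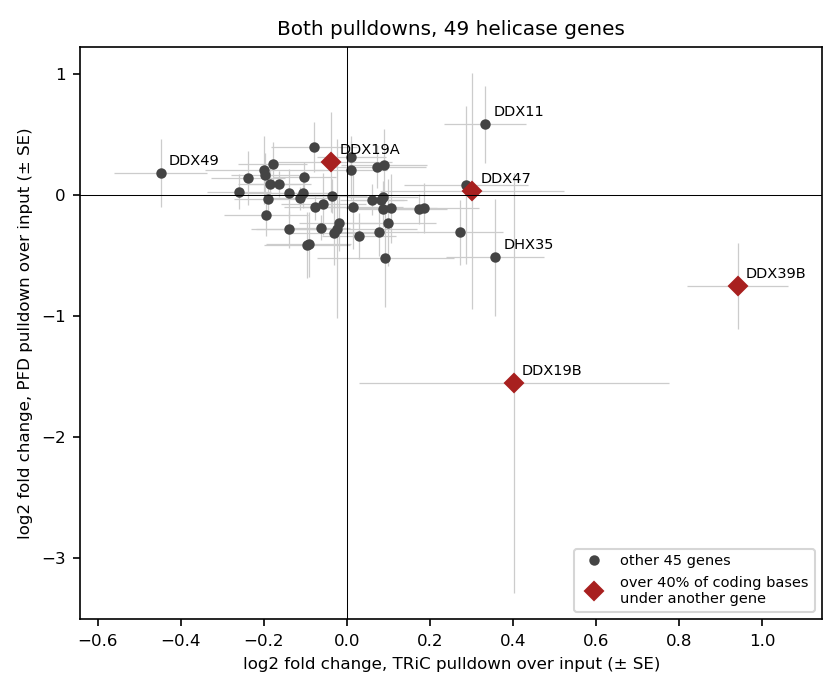
TRiC log2 fold change (horizontal) against PFD log2 fold change (vertical) for the 49 helicases, with bars of 1 SE in each direction. Diamonds are the 4 genes with over 40% of coding bases under another gene, of which DDX39B (0.94 and -0.75) and DDX19B (0.40 and -1.56) lie at the lower right, while the other 45 genes gather around 0.

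Neither pulldown set DDX and DHX genes apart, as far as medians show. They were -0.03 for 34 DDX and -0.02 for 15 DHX genes with TRiC, and -0.06 and -0.01 with PFD. By sequence, a motif II box was found in 45 members as Asp-Glu-Ala followed by Asp or His or, where that was absent, as a variant with another residue in place of Ala or with Asp in place of Glu, downstream of the ATP-binding loop. It ended in an aspartate codon in 30 and a histidine codon in 15, DDX11 being among the latter, and the third codon was alanine in 34, as in DHX35, DDX49 and DDX56 above, and another residue in 11, as in DDX39A, DDX39B and DHX9. Median TRiC log2 fold changes were -0.03 and -0.02 for the aspartate and histidine forms, and -0.04 and 0.01 for alanine and other residues as the third residue. The box lay at a median of 44.6% of the coding length. The rule also asked for a match to motif III, a further stretch of the core, soon after the box. By this rule DDX28, DDX60, DDX60L and DHX32 gave no box, which does not show that they lack motif II. Of the 49 members, 28 share no 28-base word of coding sequence with a gene at another locus, and 11 share at least 10% of theirs, led by DDX11, DDX19B, DDX19A and DHX40 (46%).

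Related helicases and known activators and partners were counted in 5 lists, beside 8.64% of all genes called higher and 10.6% lower in the TRiC pulldown, and 8.36% and 13.7% of protein-coding genes with the same minimum sum. Of 12 tested DEAD box and related helicases under other symbols, 2 were called lower with TRiC and 0 higher, namely EIF4A3, the helicase of the exon junction complex (-0.35, SE 0.08), and SNRNP200, which unwinds U4 from U6 (-0.20, SE 0.06). Among 12 G-patch proteins, which activate DEAH box helicases, the splicing regulator RBM5 was higher (0.30, SE 0.08) and GPKOW, the partner of DHX16, lower (-0.40, SE 0.09). Of 11 MIF4G-domain proteins and their partners, EIF4G3 was higher (0.37, SE 0.09) and EIF4H lower (-0.32, SE 0.10), and of 6 partners of DDX6 only LSM14B was called, lower (-0.29, SE 0.08). Of 11 exon junction and THO/TREX proteins, 0 were higher and 3 lower, and these included ALYREF, the export adaptor that DDX39B loads onto mRNA. ALYREF went from 211.7 and 198.9 CPM in the inputs to 153.6 and 143.3 CPM in the pulldowns (-0.47, SE 0.08, edgeR adjusted p = 0.000637). MAGOH (-0.40, SE 0.11) and THOC6 (-0.37, SE 0.09) were the other two. In the PFD pulldown 1 of the 52 tested genes of these lists was called, GPATCH4, a nucleolar G-patch protein, which went from 82.4 and 89.1 CPM in the inputs to 10.9 and 13.8 CPM in the pulldowns (-2.79, SE 0.27, edgeR adjusted p = 0.0119). In the TRiC libraries the same gene was at 2.50 to 3.78 CPM.

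**Figure D5:**
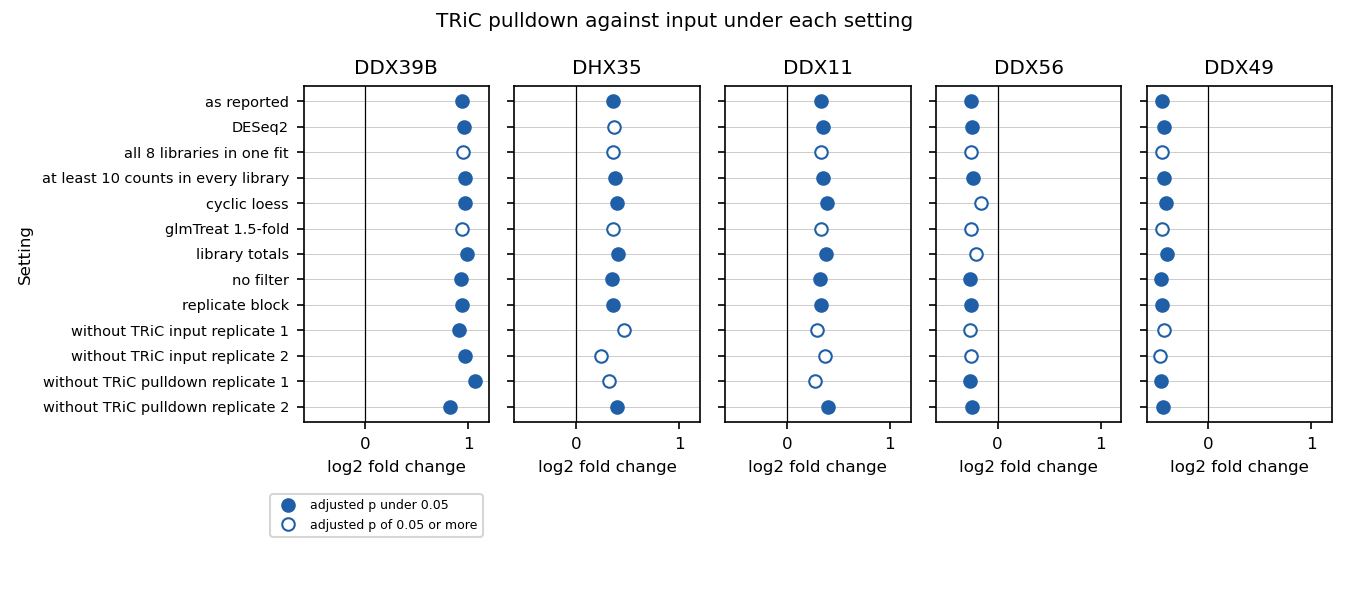
TRiC log2 fold change of the 5 called helicases as reported and under 12 other settings, with filled points where the adjusted p was under 0.05. Every point of a gene lies on the same side of 0, and DDX39B keeps a filled point in 10 of the 12 settings, against 6 to 8 for the other 4 genes.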

How the data were processed

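RPFs were measured in 8 libraries, 2 each of input and pulldown from the CCT4-Halo (TRiC) and the PFDN4-Halo (PFD) line, grouped by the sample labels. The deposited values are counts per gene without normalization, in a table for each line. The authors trimmed reads with an awk script, handled molecular identifiers with umi-tools, removed matches to non-coding RNA with Bowtie2 2.4.2 and aligned the rest with STAR 2.7.10a to hg38, where a read had to align at a single place with no more than 2 mismatches. The annotation release and the strand column kept are not given in the sources used here. Of 60664 identifiers, 60463 were matched to GENCODE release 44 for names, positions and coding lengths, and 201 were not.

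From the counts, pulldown was compared with input within each line by edgeR 4.0.16 in R 4.3.3 (TMM, filterByExpr, glmQLFit, glmQLFTest, no replicate block), and the difference of both enrichments by an interaction over 8 libraries. All genes of a table were fitted, p-values were Benjamini-Hochberg adjusted over all genes tested, and 0.05 was the threshold. Alternatives were DESeq2 1.42.0, cyclic loess with limma 3.58.1, library totals without TMM, no filter, at least 10 counts in every library, glmTreat at 1.5-fold, all 8 libraries in one fit, a replicate block, and leaving out each library. CPM are counts per 1000000 after TMM scaling. The spread between replicates limits precision, and for members with few counts, such as DDX19B, counting error does so too. TMM centres the bulk of genes on no change, so a rise common to most genes would not be seen, and gene counts hold no codon positions.

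The members and all lists were chosen with earlier results of these data known. The rule for named genes took the 6 highest members per coding length in the inputs, up to 10 called members per direction and pulldown, 6 paralogue pairs and DDX3X, and the extreme fold change of each pulldown. Every other member given with its own values, the pseudogenes DDX12B and DDX12P, and the partner genes named singly were chosen after their values were seen. Sequences were read from the reference genome and transcripts of that release. Among the markers of other cell types, 1 gene is not reported here.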

Additional observations from a re-analysis of the deposited data

How the results depend on the processing

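Members called in the TRiC pulldown numbered 3 higher and 2 lower as reported. They numbered 0 and 0 with all 8 libraries in one fit and with glmTreat, 5 and 2 with at least 10 counts, 6 and 1 with cyclic loess, 3 and 1 with library totals, and 5 and 8 with the replicate block, and ranged from 1 to 3 higher and 0 to 6 lower when 1 library was left out. All 5 calls were kept without a filter, with at least 10 counts, with the block and without TRiC pulldown replicate 2, and 1, DDX39B, without either TRiC input. Correlations of same-numbered deviations were 0.157 (TRiC) and -0.0999 (PFD), so with 2 pairs the numbers do not establish a pairing. The block added DDX17 and DDX60L (higher) and DDX6, DDX24, DDX27, DDX39A, DHX15 and DHX16 (lower) in the TRiC comparison, and called 0 members in the PFD comparison and 0 in the interaction.

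The TRiC median (-0.0245) was -0.0118 with DESeq2, -0.00358 with at least 10 counts, 0.0551 with cyclic loess, 0.0206 with library totals, and -0.0553 to -0.00231 without 1 library. In the PFD comparison DESeq2 called 1 member lower. With 1 library left out, 0 to 2 were called higher and 0 to 1 lower, and the median ran from -0.118 to -0.0138. The interaction called 1 member with DESeq2, 1 without a filter and 0 to 12 without 1 library.

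Signs turned for these members. With cyclic loess, TRiC values became 0.026 for DDX1, 0.0342 for DDX21, 0.0622 for DDX3X and 0.0345 for DHX9, and PFD values -0.00677 for DDX1, -0.376 for DDX47 and -0.0323 for DDX60. With library totals, DDX19A was at 0.011 (TRiC), and DDX1 at -0.0159, DDX47 at -0.0107 and DDX56 at -0.00677 (PFD). DDX47 (PFD) was at -0.00519 with all 8 libraries and -0.308 with the replicate block. Leaving out 1 library in turn, TRiC values ran from -0.112 to 0.0307 for DDX19A, -0.00106 to 0.972 for DDX19B and -0.0317 to 0.206 for DDX50. PFD values ran from -0.127 to 0.152 for DDX1, -0.255 to 0.655 for DDX19A, -1.53 to 0.782 for DDX47, -0.173 to 0.472 for DDX49, -0.0579 to 0.506 for DDX50, -0.139 to 0.186 for DDX56, -0.673 to 0.587 for DDX60 and -0.0993 to 0.0323 for DHX9. The cause was not tested.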
